A study of Mus musculus with 205 samples.

Results

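Cytb, the mitochondrial gene for cytochrome b, was followed through every format in which its stop-editing DdCBE pairs were delivered, by its labels as the target gene. It accounted for 22 of the 205 samples of the series: 4 screening samples of 1 pair each, 12 samples of the lead pair 42 in 4 transient formats with 3 samples each, and 6 samples of pair 42 in 2 stable lines. The transient work used the mouse embryonic fibroblast line NIH/3T3, sorted 24 h after transfection for the fluorescent markers of the plasmids. In the screen (7 d after transfection) and the 2-plasmid format (14 d), each DdCBE monomer came from its own CMV-driven plasmid. The 2-plasmid-HHR format (7 d) added a hammerhead ribozyme (HHR), which cleaves its own mRNA, to both messages. The Tandem format (7 d) joined both monomers on 1 plasmid through the T2A ribosome-skipping sequence, and Tandem-HHR (7 d) carried the T2A link and the ribozyme. The stable lines were 3T3 cells with a docking site for FRT recombination, selected with hygromycin, that expressed the Tandem or the Tandem-HHR construct from an EF-1α promoter until DNA was taken at 28, 35 and 42 d. Controls were cells given empty vector: 1 sample in each of the first 2 screening runs, 3 samples in each of the 2-plasmid, 2-plasmid-HHR and Tandem experiments, and 1 stable sample at each day. The Tandem and stable experiments had no empty vector with the ribozyme, so their Tandem-HHR samples were set against empty vectors without it. The labels number 3 repeats per transient format without saying whether they were separate transfections, so p-values measure the spread between these samples only, which may be technical. The study's legends call the 14-d repeats technical and, where the formats are compared, the repeats biological. The tables also list 1 entry for each Cytb stable line at 49 d, which matches no labelled sample and was not used here, so statements on the stable lines cover 28 to 42 d.

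Cytochrome b is the one subunit of respiratory complex III that mtDNA encodes. It spans the inner mitochondrial membrane, holds both b-type haems, and passes electrons from ubiquinol within the Q cycle. A DdCBE is a pair of TALE proteins that bind the light (L) and heavy (H) strands on both sides of a target, each carrying an inactive part of the double-stranded-DNA deaminase DddA. Where both parts meet, a cytosine that follows a thymine is deaminated, and a uracil glycosylase inhibitor keeps the repair enzymes away, so that C:G becomes T:A. Mouse mitochondria read TGA as tryptophan and TAA as stop, so 1 such edit in a tryptophan codon ends the protein.

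In the reference mouse mtDNA (GRCm38), mt-Cytb (ENSMUSG00000064370) lies at MT:14145-15288 on the forward strand as a single coding exon of 1144 nt and 381 codons. All 11 of its tryptophan codons read TGA. The target was the third of them, codon 77 at MT:14373-14375, and the edit G14374A (reference base, position on MT, edited base) made it TAA. The edited protein would stop after 76 residues (19.9% of the full length) and lose the other 305 codons, with 8 of the 11 tryptophan codons and 9 of the 13 histidine codons downstream of the target. The histidines that hold the haems in cytochrome b are among those lost. The site is given here because the on-target value is read at this 1 base, first as the reference L strand with the target codon in capitals, then as the edited L strand with the stop codon in capitals, and last as the reference H strand with the edited cytosine and the thymine before it in capitals, each over MT:14345-14403.
Cytb reference, L strand: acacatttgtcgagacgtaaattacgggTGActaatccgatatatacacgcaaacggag
Cytb edited, L strand: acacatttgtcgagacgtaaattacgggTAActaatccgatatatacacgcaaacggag
Cytb reference, H strand: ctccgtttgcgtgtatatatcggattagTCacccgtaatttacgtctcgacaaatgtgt

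On either strand, the nearest other cytosine with a thymine before it lay 7 bases from the Cytb target. Only 2 such cytosines, 1 on each strand, lay within 10 bases of it (7 and 9 bases downstream), and 6 lay within 30 bases. For the other constructs that went through the same formats, the nearest one lay 2 bases away in Nd3, 6 bases in CoII and 8 bases in Atp6.

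Sequencing depth differed by experiment. Mean coverage per Cytb sample was 82032 to 95612 in the 2-plasmid format, 1734 to 13757 in 2-plasmid-HHR, 289.7 to 438 in Tandem and Tandem-HHR, and 293 to 3436 in the stable lines. In the screen it was 397 to 2064. The depth at the target base is not given in the sources used here, so no binomial interval was set on the on-target values, and their error is the SD over samples. The 2-plasmid samples were sequenced in 1 run (NS1), the 2-plasmid-HHR samples in another (MS4), and all Tandem, Tandem-HHR and stable samples in a further run (MS5), each with its own empty vectors. The off-target level of the empty vectors, the mean frequency of C:G-to-T:A changes across the mtDNA, was 0.0238% ± 0.00028 (SD, n = 3) in the 2-plasmid experiment, 0.151% ± 0.017 in 2-plasmid-HHR and 0.157% ± 0.0033 in Tandem. The background of the 2-plasmid-HHR experiment was thus 6.32 times, and that of the Tandem experiment 6.58 times, that of the 2-plasmid experiment, and every Cytb off-target value is given beside the empty vector of its own run.

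The screen compared 4 TALE combinations at the Cytb codon. The study chose its lead pairs by both high on-target editing and a low score for off-target edits. All 4 combinations edited most of the mtDNA at 7 d. Pair 41 (TALEs L1 and H1) reached 74.9% on-target editing, pair 67 (L2 and H1) 74.5%, pair 42 (L2 and H2) 78.7% and pair 68 (L1 and H2) 84.4%. The 2 pairs with TALE H1 lay within 0.41 percentage points of each other, and both pairs with H2 lay above them, although pair 42 was in another run (MS1). Pairs 41 and 68 share TALE L1 and the sequencing run (MS2) and differ in the H-strand TALE, and pair 68 was 9.49 percentage points above pair 41. Each pair had 1 sample, so these differences have no replicate check. Among all 52 screening pairs, the Cytb pairs ranked 8 (pair 68), 21 (pair 42), 24 (pair 41) and 25 (pair 67) from the highest on-target value. This ranking mixes runs with median on-target values of 78.5% (MS1), 71.9% (MS2) and 72.3% (MS3). Within run MS2, pairs 68, 41 and 67 ranked 5, 10 and 11 of 24, and within run MS1 pair 42 ranked 8 of 16. The range over the 4 Cytb pairs, 9.9 percentage points, ranked 3 of 13 genes from the narrowest, whose pairs spanned 8.41 to 65.1 percentage points.

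The Cytb pairs were low in off-target editing for the screen. Their off-target levels were 0.223% for pair 41, 0.179% for pair 42, 0.240% for pair 67 and 0.235% for pair 68. They ranked 37 to 49 of 52 from the highest, and no other gene had all of its pairs at or below 0.240%. These ranks pool runs with median levels of 0.268% (MS1), 0.285% (MS2) and 0.339% (MS3), and no Cytb pair was in MS3. Within run MS2, pairs 41, 67 and 68 ranked 21, 17 and 18 of 24 from the highest. Within run MS1, pair 42 ranked 13 of 16. With runs pooled, the Cytb range of 0.0611 percentage points was also the narrowest of the 13 genes. The empty vector of run MS2, which held pairs 41, 67 and 68, was at 0.121%, and that of run MS1, which held pair 42, was at 0.0616%. All 4 Cytb pairs exceeded the empty vector of their run, as did every pair in these 2 runs (percent called 100), so that count singles out no gene. Against the empty vector of the same run the levels were 1.84-fold (pair 41), 1.98-fold (pair 67), 1.94-fold (pair 68) and 2.91-fold (pair 42). The highest fold thus belonged to the pair with the lowest level, whose empty vector was also the lower one. As percentage points above the empty vector the 4 pairs were close, at 0.102 for pair 41, 0.118 for pair 42, 0.119 for pair 67 and 0.114 for pair 68.

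Pair 42 was the pair carried forward. In the 2-plasmid format at 14 d its 3 samples were at 64.6%, 64.2% and 64.5% on-target editing (64.5% ± 0.21, SD, n = 3). This was 14.2 percentage points below the single 7-d screening sample of the same pair. The lead pairs of all 13 constructs were lower at 14 d than in the screen, by 4.5 to 27.2 percentage points with a median of 9.65, and the Cytb drop ranked 4 of 13. Day and sequencing run changed together between these experiments and cannot be told apart. The lead pairs were also chosen partly by their on-target values in the screen, and the part of that choice in the drop was not tested. At 14 d Cytb ranked 6 of 13 constructs in on-target editing and 7 of 13 in off-target level. The off-target levels of its 3 samples were 0.128%, 0.127% and 0.125%, against 0.0240%, 0.0240% and 0.0235% in the empty vectors. The groups were far apart, 5.31-fold ± 0.069, and the same held in 13 of 13 constructs (percent called 100).

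**Figure D1:**
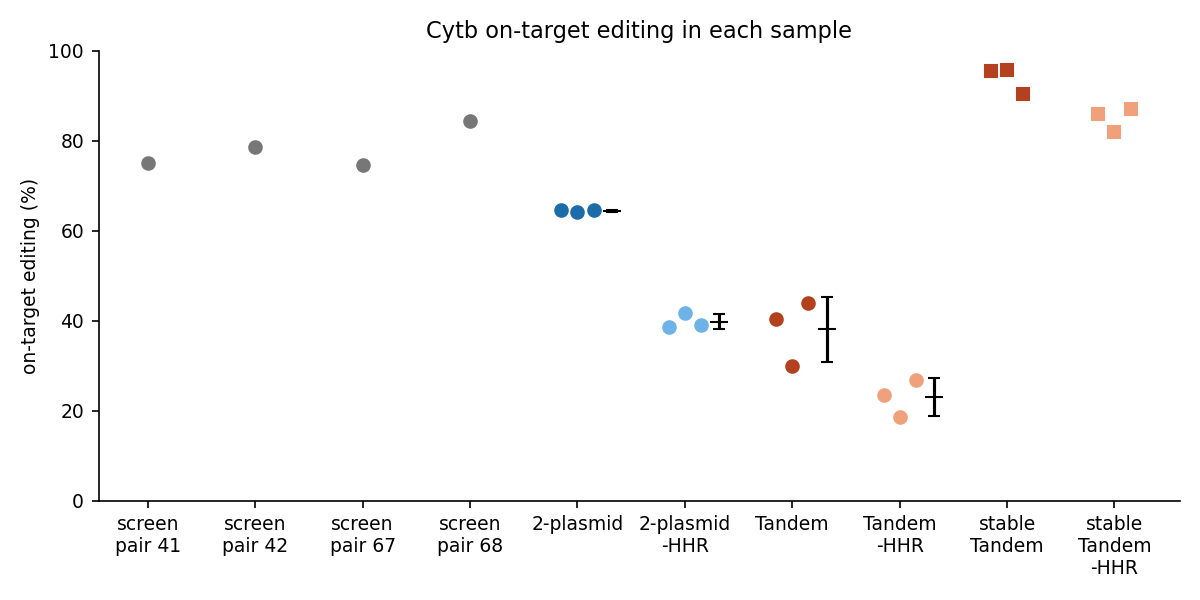
On-target editing at the Cytb codon (y axis, percent) in each of the 22 samples, with 1 point per screening pair, 3 points per transient format, and 1 square for each of 28, 35 and 42 d in the stable lines (left to right). Black marks are the mean and SD of 3 samples. The 2-plasmid samples sit within 64.2% to 64.6%, Tandem-HHR samples at 18.6% to 26.9%, and stable Tandem samples at 90.3% to 95.7%.

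The 4 transient formats asked how far lower expression of the same pair would change editing at the target and elsewhere. On-target editing of Cytb was highest in the 2-plasmid format, lower in 2-plasmid-HHR and Tandem, and lowest in Tandem-HHR. The 2-plasmid-HHR samples were at 38.7%, 41.6% and 39.1% (39.8% ± 1.6). The Tandem samples were at 40.3%, 30.0% and 43.9% (38.1% ± 7.2). The Tandem-HHR samples were at 23.5%, 18.6% and 26.9% (23% ± 4.2). Samples of the 2-plasmid-HHR and Tandem formats overlapped, their means differing by 1.73 percentage points (exact permutation test, two-sided, adjusted p = 0.9), while no other pair of formats overlapped. Those other 5 pairs differed by 15.1 to 41.5 percentage points, each with an exact adjusted p of 0.12 over 6 pairs, where 3 samples against 3 cannot give a p below 0.10. The mean on-target level fell 2.8-fold from the 2-plasmid to the Tandem-HHR format. The second repeat was the lowest Cytb sample in Tandem and in Tandem-HHR. The same held for Nd3, CoII and Atp6 in both formats, so this order is not particular to Cytb. The SD was 18.9% of the mean in Tandem, 18.2% in Tandem-HHR, 3.99% in 2-plasmid-HHR and 0.319% in 2-plasmid, where the repeats may be of another kind.

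With the ribozyme, Cytb on-target editing fell by 19.9 percentage points on average over the 2 architectures (exact permutation test within architecture, two-sided, p = 0.005, the smallest of 400 splits), with each ribozyme sample below every matching sample without it. The fall was 15.1 percentage points in Tandem, where run and day were the same, leaving 0.604 of the level. In the 2-plasmid architecture it was 24.7 percentage points, leaving 0.617, and here the ribozyme went together with another run and with 7 d instead of 14 d, which cannot be told apart. The 7-d screening sample of pair 42, without ribozyme, was 38.9 percentage points above the 2-plasmid-HHR mean, but it was 1 sample of another run. Linking the monomers by T2A went with an on-target level lower by 21.6 percentage points on average (exact, p = 0.005), 26.4 without the ribozyme and 16.8 with it. Run differed between the linked and unlinked samples in both cases, and day in the first. The sort differed as well, for cells with both GFP and mCherry when unlinked and for mCherry alone when linked. Neither fall is particular to Cytb. In Tandem, the mean change with the ribozyme was -12.4 percentage points for Nd3, where samples overlapped, -14.9 for CoII and -20.2 for Atp6. Without the ribozyme, the mean change with linking was -26.7 percentage points for Nd3, -22.2 for CoII and -19.2 for Atp6.

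The off-target level of Cytb did not follow the same order as its fold over background. The 2-plasmid-HHR samples were at 0.212%, 0.210% and 0.183%, with empty vectors at 0.140%, 0.142% and 0.170%. The Tandem samples were at 0.204%, 0.179% and 0.199%, with empty vectors at 0.155%, 0.155% and 0.161%. All 3 Cytb samples lay above all 3 empty vectors in both formats, by 0.0133 and 0.0185 percentage points at the nearest. In Tandem-HHR the Cytb samples were at 0.155%, 0.174% and 0.170%. The first of these lay between the empty vectors, so the groups overlapped. Over Cytb, Nd3, CoII and Atp6 in the 4 formats, 13 of 16 sets of samples lay wholly above their empty vectors (percent called 81.2), and Cytb accounted for 3 of its 4.

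**Figure D2:**
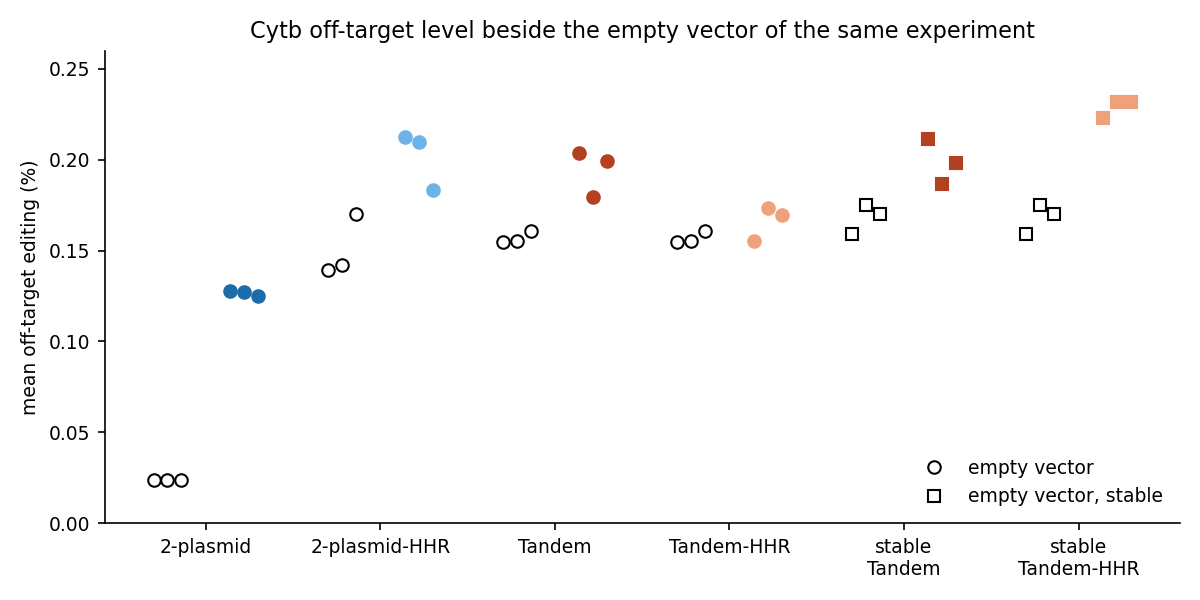
Off-target level (y axis, mean C:G-to-T:A frequency over the mtDNA, percent) of the Cytb samples (filled) beside the empty vectors of the same experiment (open), with 1 point per sample; squares are stable lines at 28, 35 and 42 d. The 2-plasmid empty vectors sit near 0.0238%, and the Tandem-HHR samples, at 0.155% to 0.174%, overlap their empty vectors.

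The Cytb off-target level was 5.31-fold that of the empty vectors in 2-plasmid, 1.34-fold ± 0.11 in 2-plasmid-HHR, 1.24-fold ± 0.084 in Tandem and 1.06-fold ± 0.062 in Tandem-HHR (SD of 3 Cytb samples over the mean empty vector). The exact test gave p = 0.1 in each of the first 3 formats, the smallest that 3 against 3 allow, and p = 0.3 in Tandem-HHR. Over the 4 formats together the level was 1.75 times the empty vectors (0.80 on the log2 scale, exact permutation test within experiment, two-sided, p = 0.000238). Without the 2-plasmid format the log2 difference was 0.27 (p = 0.00476), so that format carried most of the size. As percentage points above the empty vector, the Cytb excess was 0.103 ± 0.0016 in 2-plasmid, 0.0512 ± 0.016 in 2-plasmid-HHR, 0.0373 ± 0.013 in Tandem and 0.00912 ± 0.0097 in Tandem-HHR. In Tandem-HHR the excess was smaller than its own SD.

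In Tandem, where the run, day and empty vectors were shared, all 3 Tandem-HHR samples (0.174% at most) lay below all 3 Tandem samples (0.179% at least), and the geometric mean with the ribozyme was 0.855 of that without it (log2 change -0.23, exact p = 0.1, the smallest possible). The same separation held for Nd3, CoII and Atp6, so it is not particular to Cytb. Mean levels in Tandem and Tandem-HHR were 0.194% and 0.166% for Cytb and 0.215% and 0.170% for Nd3. They were 0.276% and 0.180% for CoII, and 0.285% and 0.188% for Atp6. Averaged over both architectures, the Cytb fold over the empty vector was 0.464 of that without ribozyme (log2 change -1.11, exact p = 0.005). Most of this came through the 2-plasmid architecture (log2 change -1.99), where run and day changed with the ribozyme. Linking the monomers left 0.429 (log2 change -1.22, exact p = 0.005), with log2 changes of -2.10 without the ribozyme and -0.34 with it. Both values rest on the division by each experiment's own background. With 1 mean of all transient empty vectors as the reference, they became 0.22 (p = 0.145) and 0.17 (p = 0.305) on the log2 scale, in the opposite direction. Undivided, the mean Cytb level in 2-plasmid-HHR was 1.59 times that in 2-plasmid, and the mean empty vector 6.32 times. As percentage points above the own empty vector the level fell by 0.0399 with the ribozyme and fell by 0.0538 with linking (exact p = 0.005 each). The p-values of these averaged effects come from permuting Cytb samples alone, with each mean empty vector held fixed. They leave out the spread of the empty vectors, whose SD in 2-plasmid-HHR was 0.0169 percentage points.

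**Figure D3:**
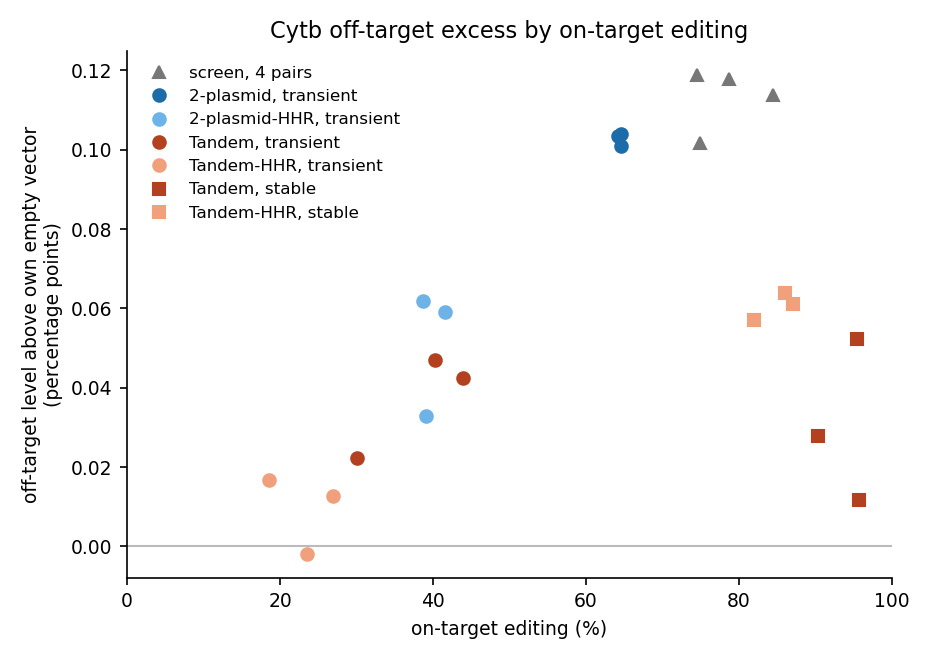
Off-target level above the empty vector of the same run or day (y axis, percentage points) against on-target editing (x axis, percent) for all 22 Cytb samples, 1 symbol each. Transient samples run from 0.103 percentage points at 64.5% in 2-plasmid to 0.00912 at 23% in Tandem-HHR (means), while stable Tandem samples hold 90.3% to 95.7% on-target at 0.0117 to 0.0522 percentage points.

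The stable lines asked what lasting expression of the T2A-linked constructs would give. In the Tandem line Cytb was edited to 95.5% at 28 d, 95.7% at 35 d and 90.3% at 42 d. In the Tandem-HHR line the values were 86.0%, 82.0% and 87.1%. The Tandem line was the higher one on each day, by 9.5, 13.7 and 3.21 percentage points, a mean of 8.81. The share of mtDNA left unedited was 4.3% to 9.69% with Tandem and 12.9% to 18% with Tandem-HHR. Neither line changed in one direction over these 3 days. Set beside the transient samples of the same run, the means over days were 2.47 times the transient level for Tandem and 3.7 times for Tandem-HHR. Each construct had 1 line, and the samples of a line at different days are not separate lines, so these differences and ratios carry no test of the constructs.

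The Cytb off-target levels of the Tandem line were 0.212%, 0.187% and 0.198% at 28, 35 and 42 d, with the empty-vector line at 0.159%, 0.175% and 0.170%. Those of the Tandem-HHR line were 0.223%, 0.232% and 0.232%. All 6 Cytb samples lay above the empty vector of the same day, and so did every stable sample of the 4 constructs (24 of 24, percent called 100). Over both lines the Cytb level was 1.27 times the empty vector (0.34 on the log2 scale, exact permutation test within day, p = 0.037, the smallest of 27 splits). This p takes the days as separate samples, and with 1 line per construct and 1 empty-vector line it describes these days and not a difference between lines. Leaving out any 1 day gave 0.29 to 0.39 on the log2 scale, with at most 9 splits and p no lower than 0.111. The empty vector at 42 d had a mean coverage of 103, the lowest among these samples.

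The measured Cytb off-target level was higher in the line with the ribozyme on each of these 3 days. Tandem-HHR was at 1.05, 1.24 and 1.17 times the Tandem level at 28, 35 and 42 d (geometric mean 1.15), although its on-target editing was lower on each day. Its fold over the empty vector was 1.33 to 1.4, and that of the Tandem line 1.07 to 1.33. An exact sign-flip test over the 3 days gave p = 0.25, the smallest it can give, and describes days only. The gap at 28 d, 0.0116 percentage points, was below the SD of the 3 transient Tandem samples (0.0131). In the transient samples of the same run, the ribozyme went the other way, with a geometric mean ratio of 0.855 between matching repeats. Transient Tandem-HHR samples were at 0.155% to 0.174% and stable ones at 0.223% to 0.232%, whereas transient and stable Tandem samples overlapped (0.179% to 0.204% and 0.187% to 0.212%). The 42-d Tandem-HHR sample had a mean coverage of 3436, and the others in the Cytb lines had 293 to 369. The 28-d and 35-d samples, of similar depth in both lines, showed the same direction. The part of depth in these values was not tested.

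**Figure D4:**
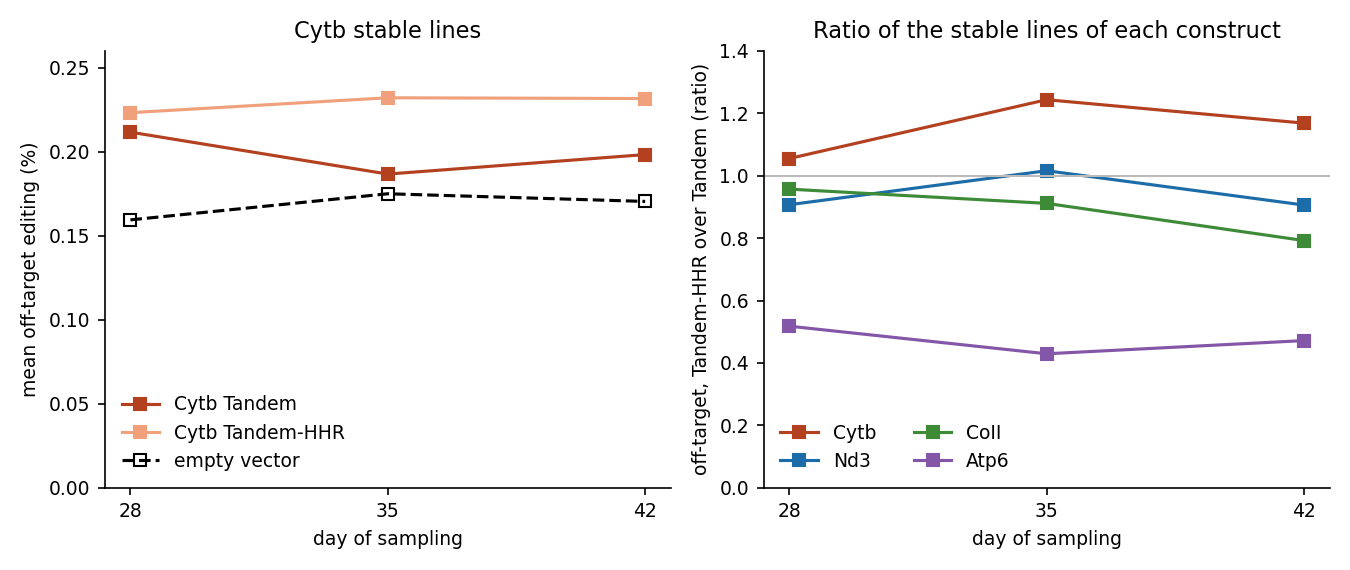
Left, off-target level (y axis, percent) of the Cytb Tandem and Tandem-HHR stable lines and of the empty-vector line by day of sampling (x axis), 1 sample per point. Right, ratio of the Tandem-HHR to the Tandem line in off-target level for Cytb, Nd3, CoII and Atp6 by day; Cytb lies above 1 on all 3 days (1.05 to 1.24), Nd3 on 1 day, and CoII and Atp6 on none.

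Nd3 (complex I), CoII (complex IV) and Atp6 (ATP synthase) were the constructs taken through the same 4 formats and stable lines. In on-target editing Cytb ranked 3 of 4 in 2-plasmid, 2-plasmid-HHR and Tandem, and last in Tandem-HHR. It was below Atp6 in 4 of 4 formats, by 8.86 percentage points on average (exact permutation test within format, two-sided, adjusted p = 0.000475 over 6 comparisons). It was below CoII in 4 of 4 formats, by 4.88 percentage points (adjusted p = 0.023). Against Nd3 it was higher by 1.07 percentage points on average and lower in 1 of 4 formats (adjusted p = 0.516). In off-target level, Cytb was at 0.743 times Atp6 and 0.785 times CoII over the 4 formats (exact, adjusted p = 7.5e-05 for each), lower in 4 of 4. Against Nd3 it was at 1.05 times (adjusted p = 0.19), higher in the 2-plasmid formats and lower in the Tandem ones. The on-target difference from CoII did not hold its adjusted p below the threshold of 0.05 without any 1 of the 2-plasmid, 2-plasmid-HHR or Tandem-HHR formats, nor without the first or the third repeats, where p was 0.0518 to 0.199. All these tests permuted samples freely within format and did not pair constructs by repeat number. With that pairing, the exact permutation test on target gave an adjusted p of 0.00146 for CoII and 0.000977 for Atp6. The pairing was not run with a format or repeat left out, so shared variation between repeats may enter the loss of the CoII call.

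**Figure D5:**
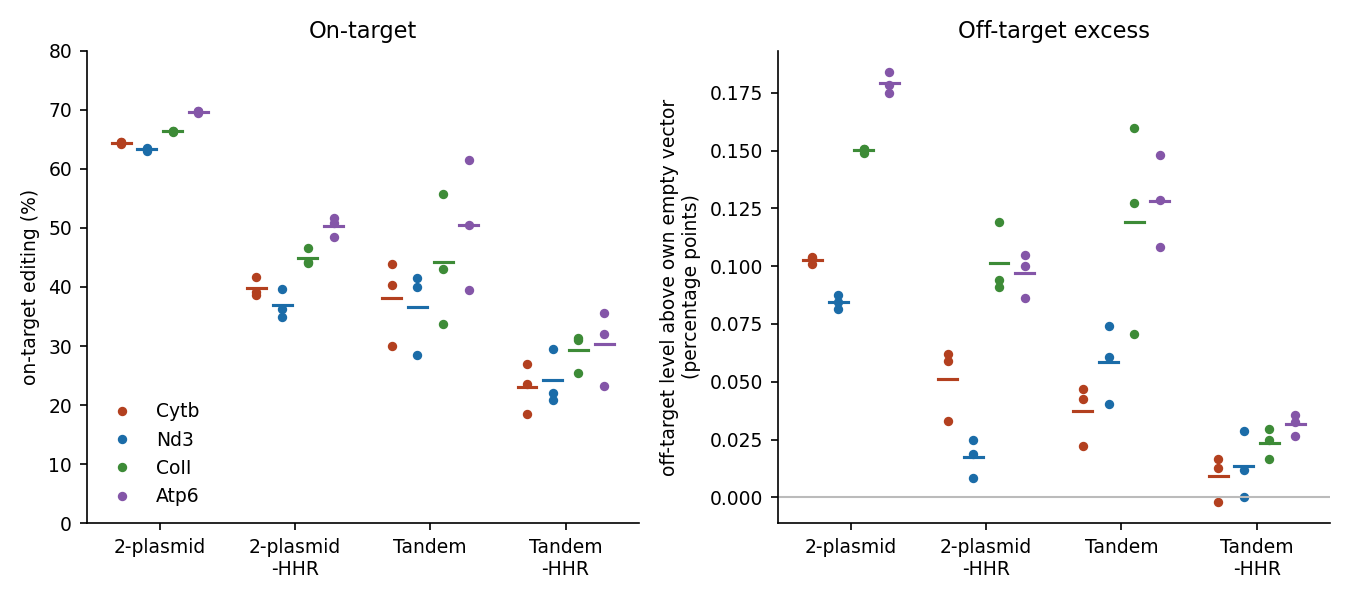
On-target editing (left, y axis in percent) and off-target level above the own empty vector (right, y axis in percentage points) of Cytb, Nd3, CoII and Atp6 in the 4 transient formats (x axis); points are samples and bars are means of 3. Cytb lies below CoII and Atp6 in mean on-target and off-target values in each format, with Tandem-HHR excesses of 0.00912 (Cytb) and 0.0315 (Atp6) percentage points. It lies near Nd3 on target, while its mean excess is above that of Nd3 in the 2-plasmid formats and below it in the Tandem ones.

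The off-target excess was also set against on-target editing. For Cytb it was, on average, 0.00159 percentage points of off-target level per point on target in 2-plasmid, 0.00129 in 2-plasmid-HHR, 0.00096 in Tandem and 0.000428 in Tandem-HHR. The Cytb samples of each format overlapped with those of the next in this order (0.00156 to 0.00161, 0.00084 to 0.0016, 0.000744 to 0.00117 and up to 0.000897), and no test was made. By means it was the lowest of the 4 constructs in both Tandem formats, overlapping with Nd3 and CoII in Tandem-HHR, and ranked 3 of 4 in both 2-plasmid formats. The 3 Tandem-HHR samples of Cytb spanned -8.0e-05 to 0.000897, so the ratio in that format was within its own spread of 0.

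In the stable Tandem lines, Cytb off-target levels were in the range of Nd3 and CoII. The mean over days was 0.199% for Cytb, 0.197% for Nd3, 0.210% for CoII and 0.430% for Atp6. In the stable Tandem-HHR lines Cytb was the highest of the 4 constructs on 3 of 3 days, with a mean of 0.229%, against 0.186% for Nd3, 0.186% for CoII and 0.202% for Atp6. In on-target editing the Cytb Tandem-HHR line, at 85.0% ± 2.7 over days, ranked first or second of the 4 constructs. The ribozyme line was lower than the Tandem line by 8.81 percentage points for Cytb, 39.9 for Nd3, 15.4 for CoII and 11.6 for Atp6. With 1 line per construct these differences between constructs were not tested. Over 10 points (4 format means and 6 stable samples), the construct nearest to Cytb in on-target editing was Atp6, with a mean absolute difference of 5.34 percentage points, nearly tied with CoII at 5.36, and Nd3 was at 9.99. Nd3 was nearest in the transient formats (1.65) and farthest over all stable samples (15.5). That distance came from the Tandem-HHR lines (27.7). In the stable Tandem lines Nd3 was at 3.35, between CoII (2.80) and Atp6 (4.18), so the likeness depends on which samples are counted.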

How the data were processed

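The authors sequenced overlapping long-range PCR products of mtDNA as Nextera XT libraries, trimmed reads (Trim Galore), aligned them to GRCm38 chromosome M with Bowtie2 and counted bases with samtools mpileup (mapping quality at least 30) and VarScan. The deposited on-target and off-target values are in percent. Which positions enter the off-target average, and whether the target is one of them, is not given in the sources used here. The deposited coverage is the unnormalized mean depth. Groups came from the labels, and 12 table entries matching no labelled sample, 2 of Cytb (49 d) among them, were not used here. Differences were tested by exact permutation within experiment, format or day (Python 3.11.15, numpy 2.4.6), tested on simulated data, and adjusted by Benjamini-Hochberg over each stated family. Members and lists were chosen with earlier results of these data known. Named constructs were Cytb and the 3 carried through the same formats, and likeness was the mean absolute on-target difference. Same-numbered on-target samples of Cytb and each of these 3 correlated positively, some weakly (r over 4 formats 0.157 to 0.994). Cytb and empty-vector off-target levels correlated negatively (r -0.799 to -0.351), so repeat numbers were taken to pair constructs only. No correlation was taken between formats, although the second repeat was lowest on target in both Tandem and Tandem-HHR. Pairing by repeat, between constructs or between formats, entered the tests only as an alternative. Alternatives covered scale, average, reference, coverage (at least 300), formats, days, repeats and pairing.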

Additional observations from a re-analysis of the deposited data

Results flagged for a closer look

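The off-target ratio of Tandem-HHR to Tandem differed in direction between the Cytb stable lines and the transient Cytb samples of the same run. It was 1.15 in the stable lines, above 1 on all 3 days, and 0.855 in the transient samples, where all 3 samples with the ribozyme lay below all 3 without it. This transient separation also held for Nd3, CoII and Atp6. The difference between the stable and the transient ratio was not tested, since each stable construct had 1 line.

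Among the stable lines, the same ratio was below 1 on all 3 days for CoII (geometric mean 0.884) and Atp6 (0.472), opposite to Cytb. Nd3 was above 1 on 1 of 3 days (0.941). The differences between constructs were not tested.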

How the results depend on the processing

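Of 118 recomputed values for the 12 results whose main design could pass the threshold, 84 kept their direction and their side of it; the other 22 results could not pass it by design or had no test, so their side of it says nothing about stability. Cytb against the empty vectors over the 4 transient formats kept both in all 13 alternatives, at 0.78 to 0.84 on the log2 scale when 1 repeat was left out, and with the replicate block (0.80, p = 0.00289). The replicate block changed no other call either: the ribozyme and linking effects had p = 0.0312 each on target (-19.9 and -21.6 percentage points), and the Cytb differences from CoII and Atp6 kept adjusted p-values of 0.000977 to 0.00146. The ribozyme and linking effects could not pass the threshold in smaller sets (at least 0.1 with 1 stratum, 0.0556 with 1 repeat left out). Within 1 stratum the ribozyme effect was -24.7 (2-plasmid) and -15.1 (Tandem) percentage points on target and -1.99 and -0.23 log2 off target, and the linking effect was -26.4 and -16.8 (without and with ribozyme) and -2.10 and -0.34. With 1 repeat left out they were -21.3 to -19.1 and -24.2 to -18.1 percentage points, and -1.19 to -1.02 and -1.30 to -1.18 log2. Referred to the mean of all empty vectors, the off-target effects turned to 0.22 (ribozyme) and 0.17 (linking). The stable-line difference was 0.24 with the Tandem line alone, 0.45 with Tandem-HHR alone, and 0.29, 0.39 and 0.35 without 28, 35 and 42 d, none with enough splits to reach the threshold. The on-target difference from CoII was -4.34 by medians (adjusted p = 0.0771), -5.86, -4.78 and -4.41 percentage points without the 2-plasmid, 2-plasmid-HHR and Tandem-HHR formats, and -6.05 to -3.51 with 1 repeat left out. The off-target difference from Nd3 passed the threshold without the Tandem format (0.15 log2, adjusted p = 0.0162). The 2-plasmid-HHR minus Tandem differences, -3.20 to 5.00 percentage points and -0.0025 to 0.28 log2, changed sign without the second repeats. Against the mean of both screening empty vectors, pair 42 had the lowest fold of the 4 pairs (1.96) instead of the highest. Leaving out samples with a coverage under 300 changed no call among the 5 results it was run for. Mean coverage was lowest in the Tandem, Tandem-HHR and most stable samples of Cytb (down to 289.7), and the part of depth in their spread was not tested.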

Other observations

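The reference mtDNA has 5989 C:G pairs. If the off-target average ran over all of them and included the target, the edited Cytb base alone would add 0.0108 percentage points in 2-plasmid, 0.00664 in 2-plasmid-HHR, 0.00635 in Tandem, 0.00384 in Tandem-HHR, 0.0157 in the stable Tandem line and 0.0142 in the stable Tandem-HHR line. These sizes equal 10.5%, 13.0%, 17%, 42.1%, 51.2% and 23.4% of the Cytb excess over the empty vectors in the same order. At 35 d the value for the stable Tandem line, 0.0160 percentage points, exceeds the whole measured excess of 0.0117. Whether the target was part of the average is not given in the sources used here.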
